A study of Mus musculus with 5 samples.

Results

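Complex I of the mitochondrial respiratory chain was examined through the genes whose symbols begin with Nduf, which name its nuclear-encoded subunits and a set of its assembly factors. The rule took 45 of the 23997 rows of the deposited expression table by symbol alone, so the rule used no measured value, although the family was chosen for study with earlier results of these data known. Of these, 36 were structural subunits, 7 were assembly factors named Ndufaf, and 2, Ndufa4 and its relative Ndufa4l2, carry the name although Ndufa4 is now counted with complex IV. RNA from whole mouse kidneys at 8 weeks was sequenced in 3 libraries with the genotype label "Uninduced control" (control 0, 1 and 2) and in 2 with the label "Pkd1 knockout" (titled SKO, here knockout 0 and 1). The design text calls the mutants PkdTKO, and none of the sources used here explains these names, the inducing agent, the promoter of a recombinase, or the alleles that controls and mutants share. The labels do not tie libraries to separate animals. The p-values therefore set group differences only against the variation among these libraries, which may in part be technical.

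Complex I, or NADH:ubiquinone oxidoreductase, is the entry point of the respiratory chain for electrons from NADH. Its N module oxidises NADH on a flavin, iron-sulphur clusters carry the electrons to the Q module, where ubiquinone is reduced, and the membrane arm pumps protons. Core subunits do this work, and accessory subunits surround and stabilise them. Assembly factors help to build the complex but are absent from the finished enzyme. In the kidney the proximal tubule depends on mitochondrial respiration for the energy of reabsorption.

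Some features of the libraries bear on every value below. FPKM, fragments scaled by transcript length and by the number of mapped fragments, summed to between 504914 and 507053 in the controls, and the knockout libraries summed to 493226 and 462814. Where 5 values of a gene are listed they follow the order control 0, 1, 2 and, after "against", knockout 0, 1. Pkd1 itself had an FPKM between 3.22 and 3.51 in the controls, and was 2.72 and 3.60 in the libraries with the knockout label, so its level over the whole gene does not check the labels. Eif2s3y, Kdm5d, Ddx3y and Uty, 4 genes of the Y chromosome, together stood at 38.7% of their control mean in knockout 0 and at 0.0240% in knockout 1, and Xist was at 0.0222 to 0.0275 FPKM in the controls against 30.8 and 80.3. Sex of the RNA and genotype cannot be told apart here.

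Most structural subunits stood lower in both knockout libraries, with knockout means between 62.5% (Ndufb4) and 97.7% (Ndufs5) of the control mean. Of the 45 Nduf genes 44 were tested, having a 5-library mean FPKM of 1 or more, and 42 of these 44 had a negative log2 fold change. Both knockout libraries lay below every control for 40 of the 44, whereas this held for 26.3% of all 12640 tested rows. Both lay above every control for 0 of the 44, against 21.9% of all tested rows. Abundant genes as a whole were shifted the same way. Among the 933 rows averaging 100 FPKM or more 54.8% had both knockout libraries below every control, as had 32 of the 33 Nduf genes at that level. Both lay above every control for 85 of these 933 rows and for 0 of the 33 Nduf genes. The median log2 fold change was -0.38 over the 35 tested structural subunits, -0.27 over the 7 assembly factors, -0.02 over all tested rows and -0.23 over the 933 abundant rows. Fewer cells rich in these transcripts and less transcript in each cell cannot be told apart in RNA from whole tissue. On the FPKM scale the median subunit in the knockout libraries was at 77.1% of its control mean, and the median assembly factor at 82.2%.

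By limma's test over all rows, 7 of the 44 Nduf genes were lower at a Benjamini-Hochberg adjusted p under 0.05, and 0 were higher, either by adjusted p or at an unadjusted p under 0.05. Calls of lower made up 3.62% of all tested rows, calls of higher 2.73%, and calls of lower 13.5% of the rows averaging 100 FPKM or more, where 6 of the 7 lay among 33 Nduf genes. The 7 were the core subunits Ndufv1, Ndufs8 and Ndufs3, the accessory subunits Ndufa10 and Ndufb7, the assembly factor Ndufaf6, and Ndufa4. A further 30 Nduf genes were lower at an unadjusted p only, making 37 in all, against 16.6% of all tested rows. Among the 33 averaging 100 FPKM or more 30 were lower at an unadjusted p under 0.05, against 42.1% of the 933 rows at that level. At an adjusted p under 0.1 the lower calls numbered 28, against 9.74% of all tested rows. Of these 28 calls, 23 lay among the 33 abundant Nduf genes, against 270 calls among the 933 abundant rows. The calls rested on every control. Without control 0, 1 or 2 limma called 0 Nduf genes, and it called 5, 78 and 7 of all 12640 tested rows lower. At an unadjusted p under 0.05 these refits had 31, 26 and 30 Nduf genes lower, for which no share over all rows was computed. Without knockout 0 the subunit median log2 fold change was -0.35, and without knockout 1 it was -0.41. With each library rescaled to a common FPKM sum, 2 of the 7 kept their call (Ndufv1 and Ndufa4), and the subunit median was -0.30.

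**Figure D1:**
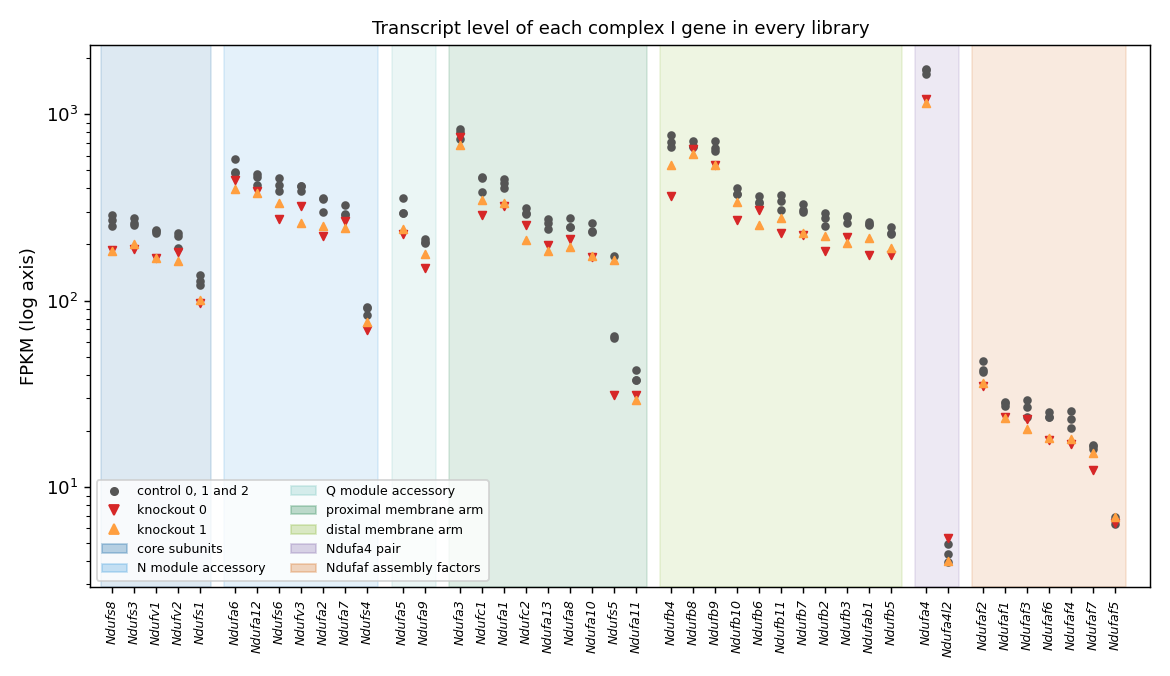
FPKM (log axis) of 43 of the tested Nduf genes in each library, grouped by place in the complex and ordered by control mean; circles are controls 0 to 2, the downward triangle is knockout 0 and the upward triangle knockout 1. Both triangles lie below every circle for 39 of the 43 genes drawn, and the 7 assembly factors sit below most subunits.

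Promoter sequence is shown for 5 genes, chosen for their place in the results below: Ndufv1 with the smallest adjusted p, Ndufs3 and Ndufb7 as called subunits, Ndufb4 with the lowest fitted value and Ndufaf4 as an assembly factor. Sequences are from RefSeq (GRCm38.p6), 5′ to 3′ on the strand of the gene. Capitals mark matches on either strand to the motif of nuclear respiratory factor 1 (NRF1; GCGCA, any base, then GCGC) or to the ETS core CCGGAAG, which GABP binds. Both factors are known regulators of respiratory chain genes. For Ndufv1, Ndufb4 and Ndufaf4 the bases shown begin 250 before the RefSeq start and end where the GENCODE gene begins. For Ndufs3 and Ndufb7 they are 30 bases around the ETS match that lies before the start.
Ndufv1: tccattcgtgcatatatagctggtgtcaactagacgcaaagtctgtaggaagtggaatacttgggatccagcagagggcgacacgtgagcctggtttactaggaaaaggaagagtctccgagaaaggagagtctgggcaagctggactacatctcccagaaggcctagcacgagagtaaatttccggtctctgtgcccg
Ndufb4: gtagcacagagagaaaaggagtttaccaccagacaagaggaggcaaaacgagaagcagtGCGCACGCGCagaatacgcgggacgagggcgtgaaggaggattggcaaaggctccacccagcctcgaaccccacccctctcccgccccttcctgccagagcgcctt
Ndufaf4: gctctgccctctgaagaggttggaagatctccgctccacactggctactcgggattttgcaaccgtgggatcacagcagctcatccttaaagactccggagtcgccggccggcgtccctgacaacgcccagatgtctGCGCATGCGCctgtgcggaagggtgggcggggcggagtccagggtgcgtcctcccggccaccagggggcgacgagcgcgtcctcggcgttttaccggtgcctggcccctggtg
Ndufs3: ccccgcgtccgcCCGGAAGaagagtcactg
Ndufb7: agcctagatgacCCGGAAGacactgaaggg

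These stretches lie at chr19:4012807-4013005 (minus strand) for Ndufv1, chr16:37654454-37654618 (minus) for Ndufb4, chr4:24897833-24898082 (plus) for Ndufaf4, chr2:90904731-90904760 (minus) for Ndufs3 and chr8:83566726-83566755 (plus) for Ndufb7. Ndufb4 held 3 NRF1 matches, with their first bases at -191, -79 and -22 from the start, of which the first is shown, and Ndufaf4 held 1, at -113. The ETS core shown began at -27 in Ndufs3 and at -20 in Ndufb7. A further ETS match in Ndufs3, on the opposite strand from base 2 to base 8 after the start, is not shown. Neither motif occurred in the window of Ndufv1. Over windows of 300 bases, from 250 before to 50 after the start, promoters were matched for 39 of the 45 members.

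The NRF1 motif occurred in 9 of the 39 members with a promoter (23.1%), in 5.19% of all 27025 genes with one and in 11.4% of the 9479 such genes that were tested here. The ETS core occurred in 5 of 39 (12.8%), in 9.93% of all genes and in 19.7% of the tested ones. The YY1 core ANATGGC occurred in 16 of 39 (41%), in 17.1% of all genes and in 17.9% of the tested ones. The motif TCAAGGTCA of the oestrogen-related receptors occurred in 0 of 39 and in 0.466% of all genes. Of the 6 assembly factors with a promoter 2 held an NRF1 match, 1 an ETS match and 2 a YY1 match. All 4 motifs were searched on both strands, and no match of one overlapped a match of another in a member. A match is a run of letters and not a binding site.

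Of the core subunits of the peripheral arm 3 passed the test. Ndufv1, which binds the flavin and takes the electrons from NADH, had an FPKM of 235.5, 229.8 and 240.0 against 169.6 and 169.6. Both knockout libraries were at 72.1% of the control mean, and the gene fell by 0.47 on the log2(FPKM + 1) scale (SE 0.0713, limma adjusted p = 0.0308). It had the smallest adjusted p of the Nduf genes in that test. Ndufs8, which carries iron-sulphur clusters between the N module and the quinone site, had 269.8, 288.5 and 249.99 against 187.2 and 185.2. It fell by 0.53 (SE 0.0903, limma adjusted p = 0.0380), the groups being far apart. Ndufs3, part of the Q module scaffold, had 262.2, 276.3 and 253.4 against 189.0 and 202.0. It fell by 0.43 (SE 0.0825, limma adjusted p = 0.0464), again with a wide gap between the groups.

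Ndufs1 and Ndufv2 pointed the same way without passing. Ndufs1, the largest subunit of the arm and a carrier of iron-sulphur clusters, had 137.6, 126.7 and 121 FPKM against 97.4 and 101.3 (limma adjusted p = 0.0672). Ndufv2, an iron-sulphur partner of Ndufv1, had 222.6, 229.3 and 192.5 against 181.2 and 162.9 (adjusted p = 0.135). The groups overlapped in neither, but control 2 was close to knockout 0 for Ndufv2. Ndufs7, which holds the last iron-sulphur cluster before ubiquinone, was listed at 0 in all 5 libraries, and no level or difference could be given for it. The proximal tubule genes Lrp2 and Slc34a1 and the mitochondrial RNA polymerase gene Polrmt were also listed at 0 in all 5, so such a 0 can be a failed estimate.

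Accessory subunits of the N and Q modules were lower in each case, and 0 of 9 passed by limma, with 8 at an unadjusted p under 0.05. The largest difference of the 9 was that of Ndufa2, with 298.4, 349.2 and 354.4 FPKM against 221 and 251.8 (log2 fold change -0.50, limma adjusted p = 0.0680). The smallest was that of Ndufa7, at 286.3, 324.7 and 290.1 against 265.8 and 244.1 (log2 -0.23, adjusted p = 0.181). All 9 had both knockout libraries below every control. Between them lay Ndufv3, Ndufs6, Ndufa5, which sits on the Q module, Ndufa9, which stands beside the quinone channel, Ndufa6, Ndufs4, whose loss in mice gives a model of Leigh syndrome, and Ndufa12, with log2 fold changes from -0.47 for Ndufv3 to -0.23 for Ndufa12.

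In the proximal part of the membrane arm 1 of 9 subunits passed. Ndufa10, an accessory subunit with a fold related to nucleoside kinases, had an FPKM of 261.8, 236.6 and 232 against 170.6 and 174. It fell by 0.49 on the log2 scale (SE 0.0868, limma adjusted p = 0.0399), and the libraries of each group lay close together. Ndufa13, also known as Grim19, came next at 241.6, 274.8 and 261.9 against 199.6 and 184.3 (limma adjusted p = 0.0576). Ndufa1, which lies on the X chromosome, had 401, 449.8 and 428.6 against 319.7 and 332.9 (adjusted p = 0.0643). Ndufa3 had the fitted value nearest 0 of these 9, -0.15, at 736.3, 805.7 and 835.3 against 751.1 and 681.7. Its groups overlapped, knockout 0 lying above control 0. Ndufa8, Ndufa11, Ndufc1 and Ndufc2 had log2 fold changes between -0.45 (Ndufc1) and -0.34 (Ndufa8), with no overlap of the groups.

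Ndufs5, a subunit of the intermembrane face, stood apart from the rest of the family. Its FPKM was 62.7, 64.5 and 173.3 against 31.3 and 164.5. The libraries split into 3 low and 2 high ones across the groups, and the log2 fold change of -0.30 had a 95% interval from -2.31 to 1.71 (limma adjusted p = 0.838). Without knockout 0 the value was 0.88, and without control 2 it was 0.18. A gene of near-identical sequence, BC002163, has a row of its own in the table, with 93.5, 92.8 and 90.6 FPKM against 6.40 and 49.3. Reads can be split between such copies, so neither value is certain. The sum of both rows was 156.2, 157.3 and 263.9 against 37.7 and 213.9, which still overlapped.

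The distal part of the membrane arm, which holds the proton-pumping end, was lower in all 11 tested subunits, and 1 passed. Ndufb7, a subunit of the intermembrane face, had 300.5, 329.9 and 306 FPKM against 224.4 and 229.95 (log2 -0.46 with an SE of 0.0817, limma adjusted p = 0.0417). Ndufb4 had the lowest fitted value of the family, -0.70, but its knockout libraries differed from each other. It had 667.8, 709.9 and 772.6 FPKM against 362.5 and 533.3, which is 50.6% and 74.4% of the control mean (adjusted p = 0.0815). Ndufb11, the other X-linked member, had 305.8, 340.5 and 368.9 against 229.6 and 279 (adjusted p = 0.114). The X-linked pair thus stood at 76.5% (Ndufa1) and 75.1% (Ndufb11) of control, near the median subunit.

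Ndufb8 differed least of the distal subunits. It had 663.1, 721.2 and 674.6 FPKM against 650.4 and 611, with a log2 fold change of -0.12 (95% interval -0.34 to 0.10, limma adjusted p = 0.409). Its groups did not overlap, although the gap between knockout 0 and control 0 was narrow. Ndufab1, the mitochondrial acyl carrier protein, which also serves fatty acid synthesis, had 255.3, 263.4 and 256.9 against 176.4 and 215.7 (adjusted p = 0.0849). Ndufb2, Ndufb3, Ndufb5, Ndufb6, Ndufb9 and Ndufb10 lay between -0.44 (Ndufb2) and -0.30 (Ndufb6), with no overlap of the groups in any of them.

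**Figure D2:**
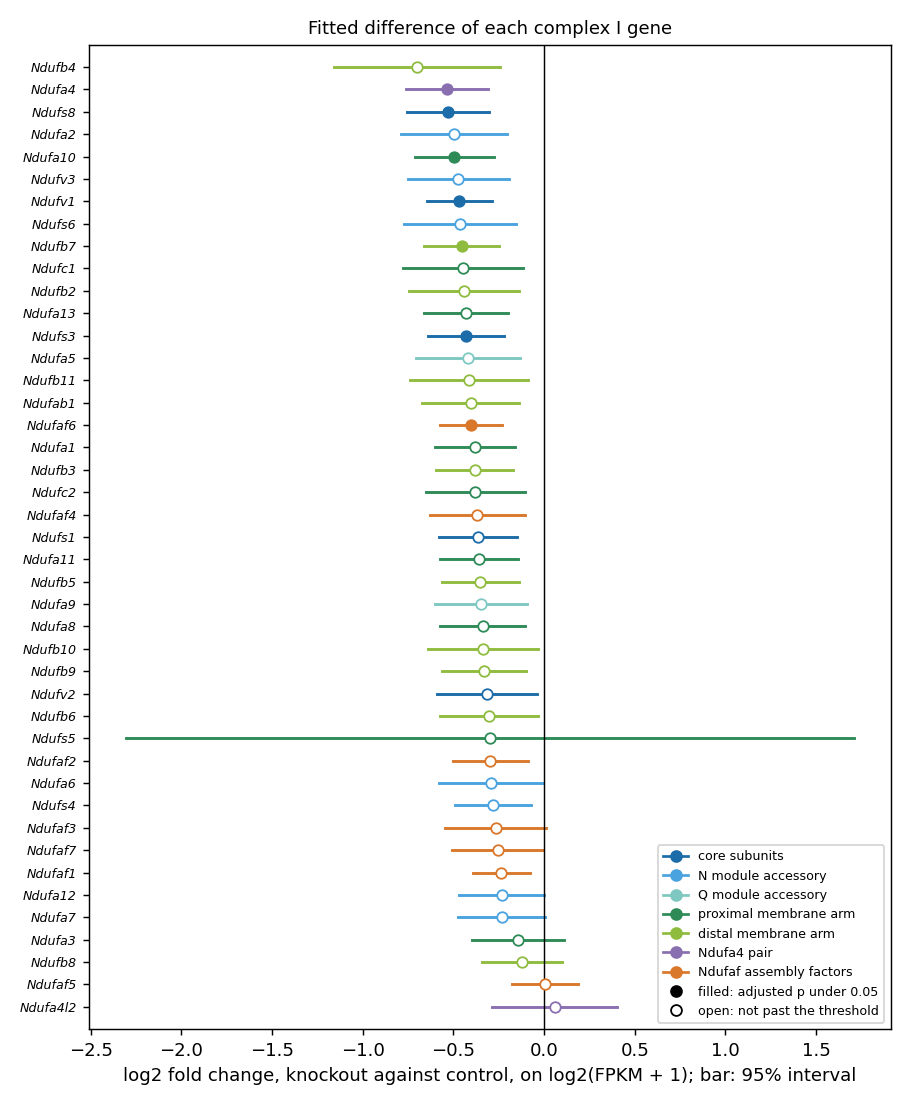
Fitted log2 fold change of the knockout against the control libraries on log2(FPKM + 1), with its 95% interval, for 43 of the tested Nduf genes in order of the estimate; colours give the place in the complex and filled points an adjusted p under 0.05. Ndufb4 is lowest at -0.70, the 7 filled points lie between -0.53 and -0.40, and Ndufa4l2 and Ndufaf5 lie at 0.06 and 0.01.

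The assembly factors were transcribed at a far lower level than the subunits. Over the controls the mean FPKM of an assembly factor ran from 6.61 for Ndufaf5 to 43.8 for Ndufaf2, with a median of 24.2. The structural subunits ran from 39.1 for Ndufa11 to 792 for Ndufa3, with a median of 301. FPKM is scaled by transcript length, so these levels can be set side by side between genes. In order of their control means the factors were Ndufaf2, Ndufaf1, Ndufaf3, Ndufaf6, Ndufaf4, Ndufaf7 and Ndufaf5. Neighbours from Ndufaf1 to Ndufaf4 lay within about the spread of the controls, at 28 ± 0.651, 26.6 ± 2.76, 24.2 ± 0.998 and 23.1 ± 2.48 FPKM (SD, n = 3 each).

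Of the 7 assembly factors 6 were lower with no overlap between the groups, and 1 passed. Ndufaf6, which is needed early in assembly, had an FPKM of 23.6, 23.65 and 25.4 against 17.8 and 18.3. It fell by 0.40 on the log2(FPKM + 1) scale (SE 0.0681, limma adjusted p = 0.0372). At the level of the assembly factors, the 7232 rows with a mean FPKM from 5 to 50, calls of lower made up 2.99% of rows, and 26.5% had both knockout libraries below every control. The median log2 fold change of these rows was -0.02, against -0.27 over the 7 assembly factors.

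Of the other 6 assembly factors 0 passed by limma, with 4 lower at an unadjusted p under 0.05. Among the 7232 rows with a mean FPKM from 5 to 50, 15.9% were lower at that unadjusted p. Ndufaf3, which acts in building the Q module, had 26.7, 29.2 and 23.7 FPKM against 23.1 and 20.6 (limma adjusted p = 0.181), a gap of under 1 FPKM between control 2 and knockout 0. Its partner Ndufaf4 had 25.6, 20.6 and 23.1 against 17.1 and 18.1 (adjusted p = 0.0944). Ndufaf7, a protein arginine methyltransferase, had 16.7, 16.7 and 16 against 12.3 and 15.1 (adjusted p = 0.166), with knockout 0 the lower of the 2. Ndufaf5, an enzyme that hydroxylates Ndufs7, was the 1 factor of the 7 whose groups overlapped. It had 6.32, 6.63 and 6.86 against 6.41 and 6.88 (log2 fold change 0.01, 95% interval -0.18 to 0.19). Knockout 0 lay inside the range of the controls and knockout 1 just above it.

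Ndufaf1 and Ndufaf2 act at opposite ends of assembly. Ndufaf1, a member of the complex that builds the membrane arm, had 28.1, 28.6 and 27.3 FPKM against 23.7 and 23.5 (limma adjusted p = 0.0867). Ndufaf2, a relative of Ndufa12 that holds its place late in assembly, had 41.6, 42.5 and 47.2 against 34.9 and 35.9 (adjusted p = 0.0912). In both genes the knockout libraries lay close to each other and apart from the controls.

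Set against each other library by library, subunits and assembly factors lay below the controls by similar amounts. The median difference of the subunits from the control mean was -0.41 in knockout 0 and -0.35 in knockout 1, and that of the assembly factors -0.32 and -0.28. The subunit median minus the assembly factor median was thus -0.096 and -0.080 in the knockout libraries, and -0.058, 0.064 and -0.031 in control 0, 1 and 2. The knockout values lay beyond the lowest control by less than the controls spread among themselves. After quantile normalization both medians were at -0.24. The ratio of the median subunit FPKM to the median assembly factor FPKM was 12.6 in knockout 0 and in knockout 1, inside the range of 11.4 to 13.3 in the controls.

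**Figure D3:**
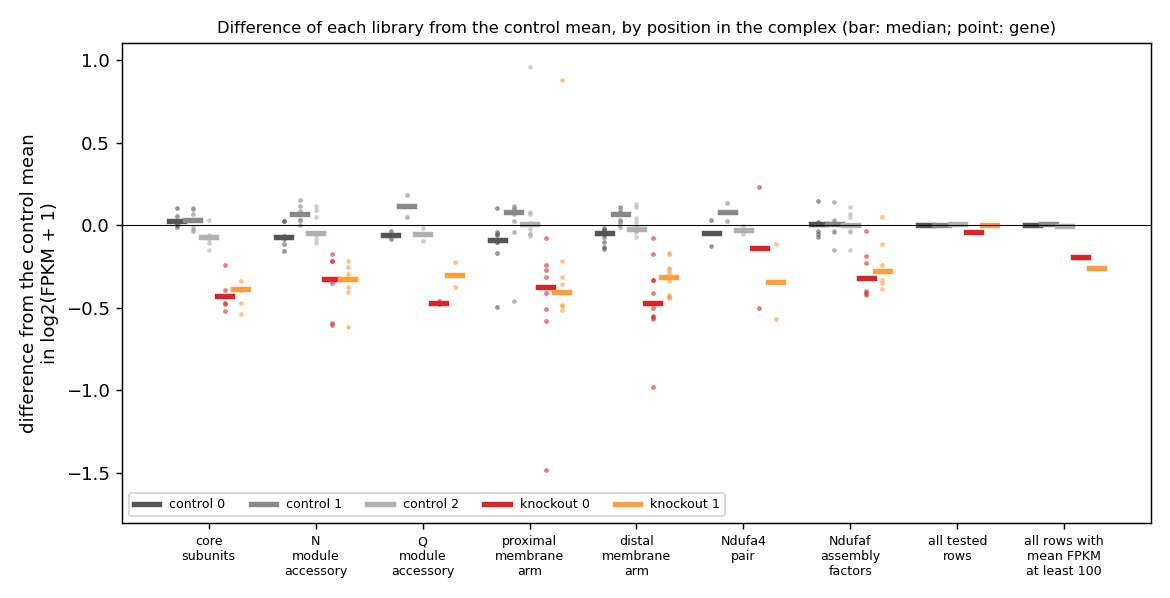
Difference of each library from the control mean in log2(FPKM + 1), by place in the complex, with a point for each of 43 genes and a bar for the median over all tested members; the last 2 columns give medians only, over all tested rows and over rows averaging 100 FPKM or more. The knockout medians lie between -0.47 and -0.28 in the structural groups and the assembly factors, against -0.19 and -0.26 over the abundant rows. At the lower level of the assembly factors, rows with a mean FPKM from 5 to 50 (not drawn) had medians of -0.042 and -0.0087. The points far from the rest in the proximal arm are Ndufs5.

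Summed over the 35 tested structural subunits the FPKM was 11801 ± 479 (SD, n = 3) in the controls against 9022 and 9357 in the knockout libraries. The sum was thus at 76.5% of the control mean in knockout 0 and at 79.3% in knockout 1. As a share of all FPKM in the library it was 2.23%, 2.43% and 2.34% against 1.83% and 2.02%. Knockout 0 was the lower of the 2 knockout libraries for 18 of the 35 subunits and for 5 of the 7 assembly factors.

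Ndufa4 passed the test and Ndufa4l2 did not, and whether the pair differed was not tested. Ndufa4, the most abundant Nduf transcript, had an FPKM of 1741, 1733 and 1639 against 1202 and 1149.6. It fell by 0.53 on the log2 scale (SE 0.0899, limma adjusted p = 0.0372), to 69% of the control mean. Ndufa4l2, a relative that is induced by hypoxia-inducible factor, had 3.95, 4.92 and 4.38 FPKM against 5.34 and 3.99. Its groups overlapped, and the log2 fold change was 0.06 (95% interval -0.29 to 0.40, limma adjusted p = 0.814).

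Genes for regulators of mitochondrial transcription made up a further list. Of 14 tested genes for transcription factors, coactivators and the mitochondrial transcription machinery 1 rose and 0 fell by limma. Over all tested rows 2.73% were called higher and 3.62% lower. Of the 14 genes 1, Esrra, was lower at an unadjusted p under 0.05. Gabpb1, a subunit of GABP, rose from 7.64 ± 0.501 FPKM (SD, n = 3) to 14 and 11 in knockout 0 and 1 (limma log2 fold change 0.64, adjusted p = 0.0439). Esrra, the oestrogen-related receptor alpha gene, had 73.3, 74.3 and 79.2 FPKM against 53.9 and 61.1 (adjusted p = 0.0616). Nrf1 had 6.16, 5.96 and 6.29 against 6.62 and 6.67 (adjusted p = 0.366). Ppargc1a, which encodes the coactivator PGC-1alpha, lay on both sides of the controls, at 17, 16.5 and 17.9 against 13 and 21 (adjusted p = 0.895).

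Complex I assembly factors with other names were also low in the knockout libraries. Of 12 such genes 9 had a row and were tested, all 9 had both knockout libraries below every control, and 1 passed. Over all tested rows 26.3% had both knockout libraries below every control, and 3.62% were called lower. Ecsit, a member of the complex that builds the membrane arm, fell from 57.7 ± 2.45 FPKM (SD, n = 3) to 41.5 and 42.8 (limma adjusted p = 0.0356). Timmdc1, another membrane arm factor, had 19.7, 18.9 and 18.8 FPKM against 15.5 and 14.9 (adjusted p = 0.0533), and Nubpl, which helps to insert iron-sulphur clusters, 24.5, 21.3 and 24.3 against 17.1 and 18.7 (adjusted p = 0.0756). The median log2 fold change of the 9 was -0.33. Of the 7 mitochondrially encoded subunits 0 had a row under the symbols searched, so they were not analysed here.

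Genes of mitochondrial content and protein import gave a smaller median, -0.20, with 10 of 16 below every control in both knockout libraries, 1 called lower and 0 higher by limma (0 higher at an unadjusted p under 0.05). The shares over the rows averaging 100 FPKM or more, where 9 of the 16 lay, were 54.8% below every control and 13.5% called lower. Vdac1, the porin of the outer membrane, fell from 515 ± 24.8 FPKM (SD, n = 3) to 366.7 and 388.1 (adjusted p = 0.0475). Timm44 had 41.6, 42.9 and 43.1 FPKM against 32.1 and 34.8 (limma adjusted p = 0.0549). Chchd3 had 169.9, 167.1 and 164.1 against 129.3 and 139.4 (adjusted p = 0.0706). Immt had 176.6, 160.6 and 156.4 against 113.1 and 132.9 (adjusted p = 0.0771). Cs, the citrate synthase gene, differed least of the 16, at 139, 134.1 and 127.3 FPKM against 132.9 and 126 (adjusted p = 0.754). The difference between this list and the Nduf genes was not tested.

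Marker genes of several kidney cell types also lay outside the range of the controls. Of 12 proximal tubule genes 10 were tested and 0 passed by limma (4 lower and 2 higher at an unadjusted p under 0.05), with 4 below every control in both knockout libraries and 2 above, against 26.3% and 21.9% of all tested rows. The summed FPKM of the list was 3717 to 4201 against 2835 and 2864, and much of that gap lay in Miox (1884, 1946 and 1585 against 1246 and 1283) and Slc7a13 (630.8, 305.9 and 523.9 against 174.6 and 1.83). Cubn had 39.1, 42.1 and 38.2 against 50.9 and 61.1, and Slc22a8 174.3, 202.7 and 188.6 against 253.3 and 336.7. The defining genes Lrp2 and Slc34a1 were listed at 0 in all 5 libraries. Macrophage genes summed to between 88.3 and 98.5 FPKM in the controls against 375.3 and 129.1, and 6 of 6 tested lay above every control in both. Fibroblast and pericyte genes summed to 61.5 to 91.6, 173 and 96.3, with 2 of 6 above every control in both knockout libraries. Collecting duct genes summed to 495.6 to 580.3 in the controls and to 385.9 and 548.1 in the knockout libraries, with 5 of 7 below every control in both. Distal convoluted tubule genes summed to 458.2 to 480, 236.1 and 401.1, with 2 of 4 below and Calb1 called lower by limma (adjusted p = 0.0362). Of 6 thick ascending limb genes Umod alone passed, higher, but it was listed at 0 in all 3 controls, which can be a failed estimate. Podocyte genes summed to 101 to 129, 92.5 and 138, and endothelial genes to 115 to 123, 131 and 127. T and B lymphocyte genes summed to 2.63 to 3.43, 8.48 and 4.599, and genes of brown and white fat to 4.53 to 12.01, 0.152 and 2.94. Red blood cell genes summed to 19.4 to 45.5, 132 and 8.33, adrenal cortex genes to 1.35 to 1.61, 1.04 and 1.54, and skeletal muscle genes to 0.0998 to 0.179, 0.257 and 0.0652. The part of these markers in the Nduf values was not tested.

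**Figure D4:**
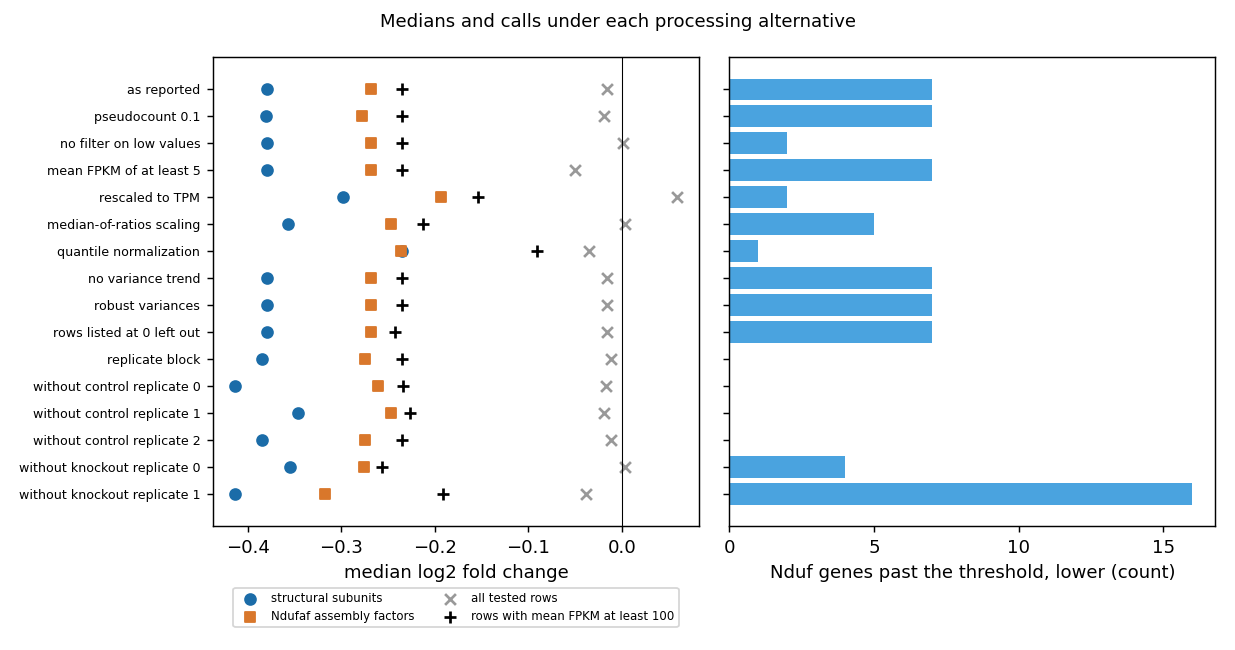
Left, median log2 fold change of the structural subunits, the assembly factors, all tested rows and rows averaging 100 FPKM or more under the reported analysis and 15 alternatives; right, the number of Nduf genes called lower (limma, adjusted p under 0.05) under each. The subunit median stays between -0.41 and -0.24 while the count runs from 0 to 16.

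The 7 called genes lie on 6 chromosomes in GENCODE M21 (mm10). Ndufv1 (ENSMUSG00000037916.14, 4007384 to 4012806) and Ndufs8 (ENSMUSG00000059734.7, 3908863 to 3912774) share chromosome 19, both on the minus strand. Ndufs3 (ENSMUSG00000005510.9) lies on chromosome 2 from 90894634 to 90904827 and Ndufa10 (ENSMUSG00000026260.12) on chromosome 1 from 92439010 to 92473860. Ndufb7 (ENSMUSG00000033938.5) lies on chromosome 8 from 83566671 to 83571626, Ndufaf6 (ENSMUSG00000050323.14) on chromosome 4 from 11051045 to 11076205 and Ndufa4 (ENSMUSG00000029632.7) on chromosome 6 from 11900292 to 11907497. Exons of 17 of the 45 members overlap exons of a gene on the opposite strand and those of 3 (Ndufb2, Ndufb8 and Ndufb9) a gene on the same strand. Since it is not stated whether counting used strand, the values of these genes are less certain, and among the called genes this touches Ndufs3, which overlaps Kbtbd4. Ndufs3, Ndufs5, Ndufs6 and Ndufb11 each have a near-identical copy elsewhere.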

How the data were processed

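The deposited table holds FPKM values that the authors computed, with 1 column for each of the 5 libraries. Whether a library holds RNA of 1 animal or several is not given in the sources used here. Per the labels' protocols, total RNA was taken up in TRIzol and 1 µg went into an Illumina mRNA kit, and per the submitters' processing notes bcl2fastq and mm10 were used. Aligner, FPKM program, annotation and strand setting: not given in the sources used here. FPKM hold no counts, so the depth is unknown and no counting interval is given.

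Rows whose mean FPKM reached 1 were tested with limma 3.58.1 (R 4.3.3, eBayes with a variance trend) on log2(FPKM + 1), which understates the change of low genes, as a two-sided test, p-values being adjusted by Benjamini-Hochberg across the 12640 rows (threshold 0.05). An exact permutation test of 3 against 2 libraries cannot go below p = 0.1. The procedure was tested on simulated data. No overlap means that both knockout libraries lay outside the range of the controls. Alternatives changed the pseudocount, the filter, the scaling, the variance model, the rows listed at 0, a block for the replicate number, the libraries included and the threshold.

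The members, as a family, and the lists (complex I factors with other names, mitochondrial content, mitochondrial transcription and kidney cell types) were chosen with earlier results of these data known. Genes named with values were the core subunits, all Ndufaf genes, those that passed, those listed at 0, the 5 highest and 5 lowest fitted values, X-linked members and the Ndufa4 pair, and for the other lists those that passed and up to 3 by adjusted p. Ndufs5, Ndufa7, Ndufa13, Ndufab1, Nrf1, Ppargc1a, Slc7a13 and Cs were named after their values were seen. The abundance classes used as background were also chosen then. Near-identical copies were transcripts with at least 95% identity over at least 50% of the length (BLAST 2.17.0, GENCODE M21). All 45 members matched GENCODE M21 by symbol. The values of 1 member are not reported here and it is not drawn, but it stays in the counts, sums and medians.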

Additional observations from a re-analysis of the deposited data

How the results depend on the processing

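Under 15 refits and a threshold of 0.1, 0 Nduf genes were called higher. The count of Nduf genes called lower, 7 as reported, was 2 with no filter on low values, 2 after rescaling to a common sum, 1 after quantile normalization, 0 with the replicate block and 28 at an adjusted p under 0.1. Leaving out 1 library gave 0 to 16. The structural subunits among them numbered 5 as reported, 1 with no filter, 1 after rescaling, 3 with median-of-ratios scaling, 0 after quantile normalization, 0 with the block, 23 at 0.1 and 0 to 13 with 1 library left out. The assembly factors numbered 1 as reported, 0 after rescaling, 0 with the block, 4 at 0.1 and 0 to 2 with 1 library left out. Over all rows 802 passed, against 482 with no filter, 28 with the block, 2044 at 0.1 and 36 to 2599 with 1 library left out. The split of these calls was 345 higher and 457 lower as reported, 454 and 266 after rescaling and 25 and 3 with the block. With no filter 19713 rows were tested. The cause of these changes was not tested.

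The subunit median, -0.38 as reported, was -0.30 after rescaling and -0.24 after quantile normalization, and -0.41 to -0.35 with 1 library left out. The assembly factor median, -0.27 as reported, was -0.28 with a pseudocount of 0.1, -0.19 after rescaling, -0.25 with median-of-ratios scaling, -0.24 after quantile normalization, -0.27 with the block and -0.32 to -0.25 with 1 library left out. The sign turned for Ndufa4l2 (0.06 as reported, -0.029 after quantile normalization, -0.12 to 0.23 with 1 library left out), Ndufaf5 (0.01, then -0.047 and -0.037 to 0.051) and Ndufs5 (-0.30, then 0.18 with the block and -1.48 to 0.88 with 1 library left out). Same-numbered control and knockout libraries deviated from their group means with correlations of 0.0863 and 0.00236. The knockout libraries deviate from their own mean by equal and opposite amounts, so these values cannot show whether the numbers pair the samples. With the block, 22 Nduf genes were lower at an unadjusted p under 0.05, for which no share over all rows was computed. With 1 knockout library left the fit assumes that it varies like the controls.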
